A study of Mus musculus and Homo sapiens with 67 samples.

Results

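The lysyl oxidase family was followed through 4 tables of gene expression from pancreatic cancer cells and tumours treated with a RAS inhibitor, an EZH2 inhibitor or both. The family has 5 genes, LOX, LOXL1, LOXL2, LOXL3 and LOXL4 in human and Lox and Loxl1 to Loxl4 in mouse, and each was found by its symbol among 60564 genes in each human table and 55335 in each mouse table. Expression was measured as FPKM, a fragment count scaled to the length of the gene and to the size of the library, so that levels of different genes can be set side by side within a table. The tables covered PSN1 and SW1990 cells, human pancreatic cancer lines, KPC cells, a mouse pancreatic cancer line, and tumours of KPC cells in mice (orthotopic, that is, grown in the pancreas). Each table had 4 arms. Control was DMSO for the cells and vehicle for the tumours, tazemetostat is an inhibitor of the histone methyltransferase EZH2, RMC-6236 is an inhibitor of active RAS, and the combination arm received both agents. Each cell arm had 3 libraries and each tumour arm had 4, which makes 52 libraries. Dose, duration of treatment, passage, and the strain, sex and age of the host mice are not given in the sources used here. The labels do not say that the libraries of a cell arm came from separate cultures, so p-values for cells measure the spread between these libraries, which may be technical.

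The family was picked from earlier results on these data, in which LOXL4 in SW1990 cells went from 3.95 FPKM in control to 58.7 FPKM with RMC-6236. The values of all members in that comparison are therefore given as a description, without a test, and so are all values of LOXL4 in SW1990 cells, whose control libraries enter every comparison with control. For the other comparisons adjusted p-values are from limma over all genes of a table (Benjamini-Hochberg), on the log2(FPKM + 1) scale, and they are not independent support for the choice of the family. A gene was tested where at least 3 cell libraries or 4 tumour libraries reached 1 FPKM, and "rose" and "fell" below mean an adjusted p under 0.05. Differences of low genes are understated on this scale, and all differences and standard errors (SE) below are in log2 units.

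Lysyl oxidases are secreted, copper-dependent amine oxidases. They convert the side chain of lysine in collagen and elastin into an aldehyde, and these aldehydes then react with neighbouring chains to form the covalent crosslinks that give collagen fibres and elastic fibres their strength. LOX and LOXL1 are made as proenzymes with an N-terminal propeptide that is cut off by BMP1-type proteases, while LOXL2, LOXL3 and LOXL4 carry scavenger receptor cysteine-rich domains in place of that propeptide. In pancreatic cancer the family is best known from the collagen-rich stroma, where fibroblasts make much of the matrix that these enzymes crosslink.

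Loxl4 was the 1 member whose promoter was found in the RefSeq promoter table for mouse, and it is shown because LOXL4 was higher in the combination arm than in the RMC-6236 arm in all 3 cell lines. The 250 bases before its start lie on the minus strand of GRCm38.p6 at chr19:42612807-42613056, and each CG dinucleotide is in capitals.
Loxl4: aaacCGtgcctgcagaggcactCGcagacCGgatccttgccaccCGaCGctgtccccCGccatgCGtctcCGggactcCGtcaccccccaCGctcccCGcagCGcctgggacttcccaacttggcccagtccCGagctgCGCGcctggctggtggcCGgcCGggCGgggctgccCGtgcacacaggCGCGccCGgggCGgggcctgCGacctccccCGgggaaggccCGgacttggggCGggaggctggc
The stretch holds 27 CG dinucleotides and 76.0% G or C, against a median of 6 CG dinucleotides over the 32851 mouse promoters of the table, which puts it at percentile 92.4. The letters TGANTCA, the core of the site bound by AP-1 transcription factors, had 0 matches on either strand, and 6.75% of all promoters in the table held a match in the same window.

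Of the 20 pairs of a member and a table, 16 passed the filter on low values. LOXL1 and LOXL3 were under it in PSN1 cells, and Lox and Loxl1 were under it in KPC cells. In SW1990 cells LOX passed only through the 6 libraries of the tazemetostat and combination arms, where it was high, so its differences there are given without a test. LOX passed in PSN1 cells with 7 of 12 libraries at 1 FPKM or more, and LOXL1 and LOXL3 passed in SW1990 cells with 9 each, so for these a difference between arms partly decided that they were tested. Between 11489 and 13414 genes reached 1 FPKM, no 2 columns were identical, and the lowest correlation between libraries of an arm was 0.959, in tumours. Mitochondrially encoded genes took 31.6 to 32.5% of the FPKM in SW1990 cells under RMC-6236 or the combination, against 26.2 to 28.0% in the other arms. The share moved with the arm in the other cell tables too. In PSN1 cells it was 22.7 to 23.2% in control, 23.5 to 23.9% under tazemetostat, 24.2 to 25.2% under RMC-6236 and 26.1 to 26.9% under the combination. In KPC cells it was 9.41 to 10.3% without RMC-6236 and 11.2 to 12.3% with it, and in tumours the arms overlapped. KPC cells carried the epithelial keratin gene Krt19 at 1221 FPKM in control, and of 7 macrophage markers 3 (Adgre1, C1qa and C1qb) were at 0 in every library while 2 (Cd68 and Mrc1) reached 1 FPKM. The 7 summed to 15.2 FPKM in control KPC cells, 26.0 in the tazemetostat arm, 9.90 in the RMC-6236 arm and 7.51 in the combination arm. In the combination tumours the summed FPKM of 8 acinar cell markers ran from 72.8 to 2676, highest in replicate 4, and 5 adipocyte markers summed to 69.4 in replicate 3 against at most 9.22 in any other tumour.

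The share of all tested genes that were called differed widely between comparisons, and the members' calls have to be read against it. In PSN1 cells 2 of the 3 tested members were called with tazemetostat, where 46% of all tested genes were called. All 3 were called with RMC-6236 (80.4% of genes), with the combination against control (82.6%), against RMC-6236 (54.2%) and against tazemetostat (79.9%). Calls on the interaction, which asks whether the combination differs from the sum of the effects of the 2 agents, took in 3 members and 23.6% of genes. In SW1990 cells LOXL4 and LOX were left out of the counts, for the reasons given above. The other 3 members were all called with tazemetostat (37.5% of genes), with the combination against control (79.2%) and against tazemetostat (75.9%). For RMC-6236 against control in SW1990 cells 72.4% of genes were called, and nothing is read from the members' calls there. Of the same 3 members, 2 were called for the combination against RMC-6236 (48% of genes). The interaction in SW1990 cells (15.2% of genes) contains the difference of RMC-6236 against control, so the members' values are given without a test.

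In KPC cells all 3 tested members were called with tazemetostat (44.1% of genes) and with the combination against tazemetostat (76.3%). Calls took in 2 members with RMC-6236 (73.7%), with the combination against control (76.4%), against RMC-6236 (48.8%) and for the interaction (25.8%). In tumours the background was lower. With tazemetostat 0 members and 0% of 13545 genes were called by limma, while 1023 genes had an unadjusted p under 0.05. RMC-6236 gave 3 called members (39.4% of genes), the combination gave 3 against control (52.4%) and 3 against tazemetostat (51%), and 1 against RMC-6236 (8.13%). By limma 0 members were called for the interaction in tumours (1.86% of genes), and 1 of the 5, Lox, had an unadjusted p under 0.05 (0.0218). The size and direction of each member's change are given below.

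**Figure D1:**
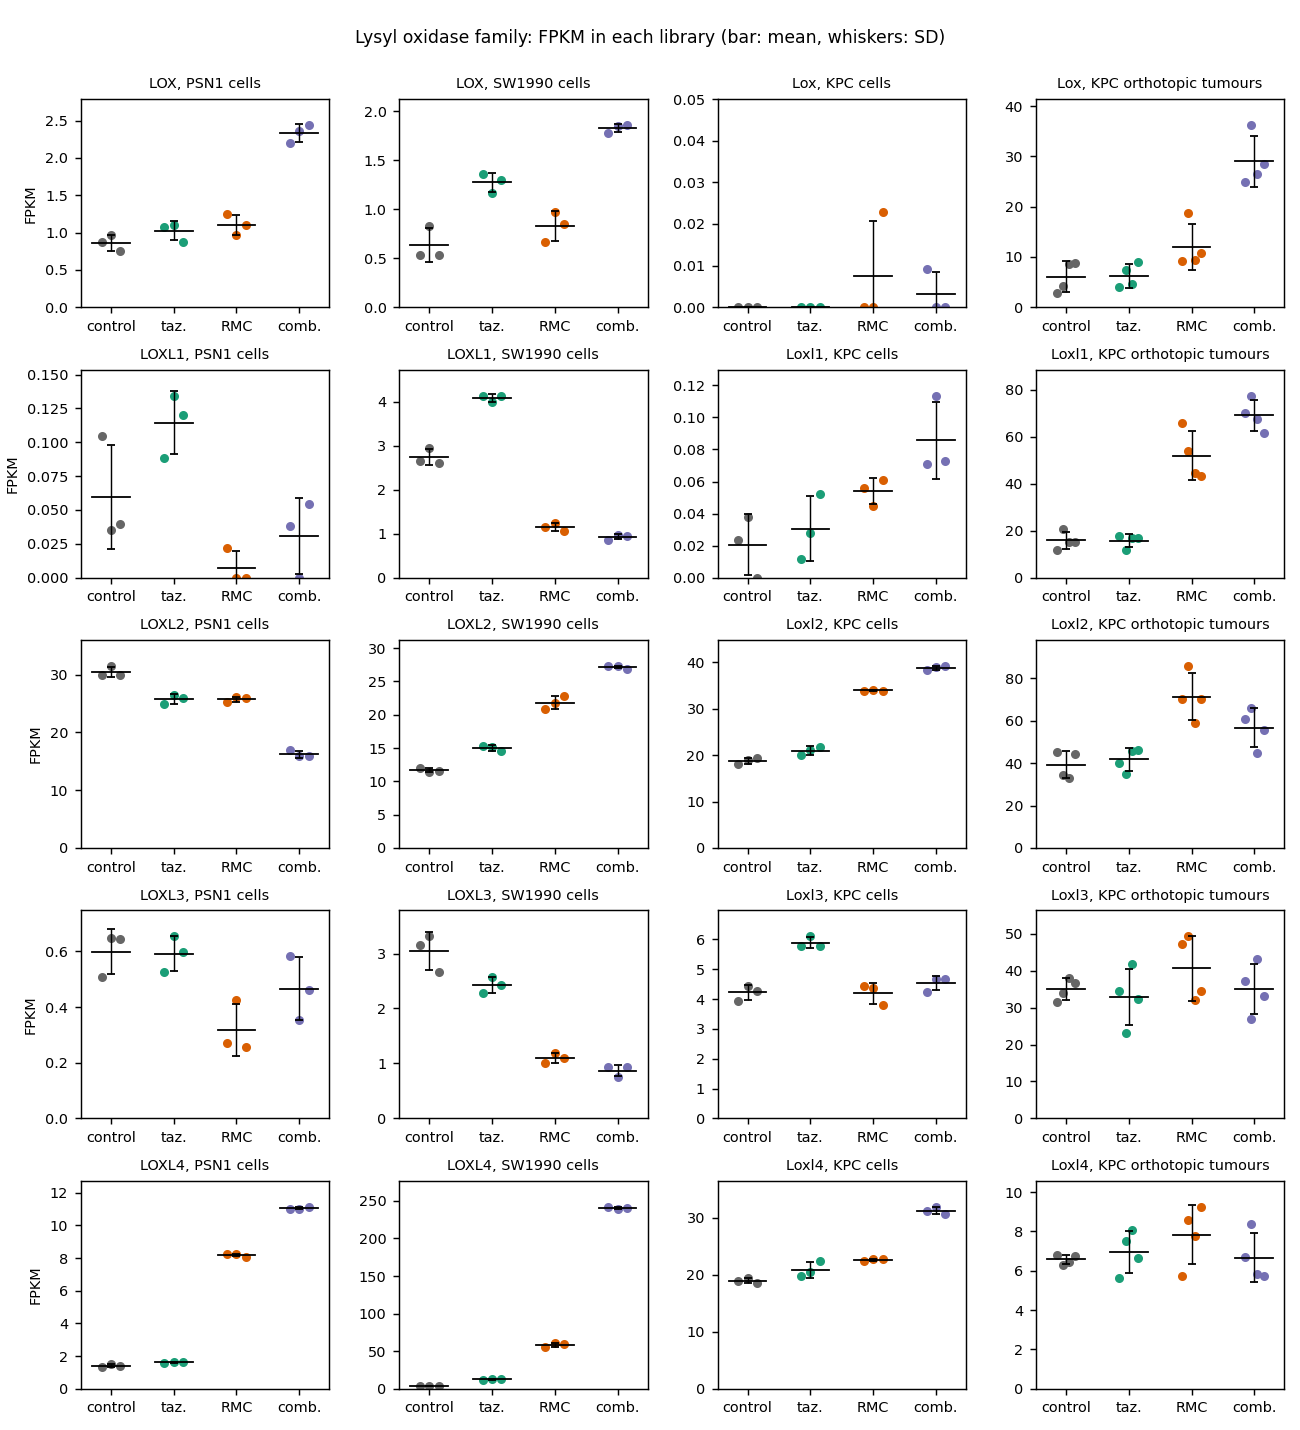
FPKM (vertical axis, linear, from 0) of each lysyl oxidase in every library of the 4 arms (horizontal axis: control, tazemetostat as taz., RMC-6236 as RMC, combination as comb.), with 1 row per gene and 1 column per table; points are libraries, bars are means and whiskers are the SD. LOXL4 in SW1990 cells sits near 4 FPKM in control and near 240 FPKM in the combination, LOXL2 is lower with treatment in PSN1 cells and is higher in SW1990 and KPC cells, and Lox and Loxl1 are near 0 in KPC cells but not in tumours.

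LOXL4 encodes a family member with scavenger receptor domains. In PSN1 cells it had, of the tested members, the largest log2 differences for RMC-6236 and for the combination against control. It ranked first in SW1990 cells too, but its rise there led to the choice of the family, so nothing is read from that rank. In SW1990 cells LOXL4 stood at 3.89, 4.33 and 3.63 FPKM in control and at 12.3, 13.3 and 12.6 FPKM with tazemetostat. With RMC-6236 its level was 55.8, 60.4 and 60.01 FPKM, and with the combination it was 242, 239 and 240 FPKM. No 2 arms overlapped, and the order was control, tazemetostat, RMC-6236, combination. The differences, given without a test, were 1.48 ± 0.050 (SE) for tazemetostat against control, 3.60 ± 0.050 for RMC-6236 against control, 2.02 ± 0.050 for the combination against RMC-6236 and 0.54 ± 0.071 for the interaction. Mitochondrially encoded genes took a larger share in the RMC-6236 and combination arms, and with all libraries rescaled to the remaining genes the LOXL4 differences kept their direction.

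The same gene started lower in PSN1 cells. LOXL4 levels there were 1.35, 1.51 and 1.38 FPKM in control and 1.59, 1.66 and 1.62 FPKM with tazemetostat. They were 8.25, 8.23 and 8.09 FPKM with RMC-6236 and 11.02, 11.01 and 11.13 FPKM with the combination. The arms did not overlap and had the order seen in SW1990 cells, over a narrower range. LOXL4 rose with RMC-6236 by 1.93 ± 0.035 (adjusted p = 6.05e-14), and the combination was higher again than RMC-6236 by 0.39 ± 0.035 (adjusted p = 8.75e-07). The interaction was 0.27 ± 0.049 (adjusted p = 0.0014). The rise with tazemetostat alone was small, 0.12 ± 0.035 (adjusted p = 0.013), and with only the 2 compared arms in the fit its adjusted p was 0.0925.

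Mouse Loxl4 was already high in untreated KPC cells and moved less. It stood at 18.9, 19.4 and 18.6 FPKM in control, 19.7, 20.6 and 22.4 FPKM with tazemetostat, 22.5, 22.7 and 22.8 FPKM with RMC-6236 and 31.2, 32.0 and 30.7 FPKM with the combination. The combination libraries were above all others, while the tazemetostat and RMC-6236 libraries lay next to each other. Loxl4 rose with RMC-6236 by 0.24 ± 0.040 (adjusted p = 0.000116), and the combination was higher than RMC-6236 by 0.45 ± 0.040 (adjusted p = 1.72e-06). Its interaction was 0.32 ± 0.057 (adjusted p = 0.00122). The rise with tazemetostat was 0.13 ± 0.040 (adjusted p = 0.0188), and it missed the threshold without tazemetostat replicate 3 (adjusted p = 0.0718), without control replicate 3 (0.0617) and with only the compared arms in the fit (0.0626). In tumours Loxl4 was the lowest or next to lowest member and was not called in any comparison with all tumours in the fit. Its levels ran from 6.28 to 6.82 FPKM in control, 5.61 to 8.06 FPKM with tazemetostat, 5.75 to 9.25 FPKM with RMC-6236 and 5.71 to 8.39 FPKM with the combination, and all arms overlapped. For RMC-6236 against control the Loxl4 difference in tumours was 0.21 ± 0.13 (adjusted p = 0.23), and without RMC-6236 replicate 1 it was 0.33 ± 0.12 (adjusted p = 0.0447). The Loxl4 difference between combination and RMC-6236 tumours was -0.20 ± 0.13 (adjusted p = 0.398).

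LOXL2, which crosslinks collagen IV of basement membranes as well as fibrillar collagen, moved in opposite directions in the 2 human lines. In PSN1 cells LOXL2 was the main member, at 30.0, 31.5 and 29.9 FPKM in control. It stood at 24.9, 26.4 and 26.0 FPKM with tazemetostat, 25.2, 26.1 and 25.9 FPKM with RMC-6236 and 16.9, 15.9 and 15.9 FPKM with the combination. The single-agent arms overlapped each other below control, and the combination lay below both. LOXL2 fell by 0.23 ± 0.032 with tazemetostat (adjusted p = 7.72e-05) and by 0.24 ± 0.032 with RMC-6236 (adjusted p = 2.04e-05). The combination was lower than RMC-6236 by 0.63 ± 0.032 in log2 units (difference -0.63, adjusted p = 4.5e-09), and the interaction was -0.40 ± 0.046 (adjusted p = 3.96e-05).

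In SW1990 cells LOXL2 went the other way. Levels were 12.1, 11.4 and 11.6 FPKM in control, 15.3, 15.2 and 14.5 FPKM with tazemetostat, 20.8, 21.8 and 22.8 FPKM with RMC-6236 and 27.3, 27.3 and 26.9 FPKM with the combination. The 4 arms did not overlap, and their means stood in that order. LOXL2 rose with tazemetostat by 0.34 ± 0.040 (adjusted p = 2.72e-05), and the combination was higher than RMC-6236 by 0.31 ± 0.040 (adjusted p = 3.4e-05). The difference for RMC-6236 against control, given without a test, was 0.84 ± 0.040. The LOXL2 interaction, also without a test, was -0.029 ± 0.057. The opposite directions in the 2 lines were not tested against each other, because the tables were made separately.

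Mouse Loxl2 in KPC cells had levels of 18.0, 18.9 and 19.4 FPKM in control, 19.9, 21.0 and 21.8 FPKM with tazemetostat, 33.9, 34.1 and 33.8 FPKM with RMC-6236 and 38.2, 38.9 and 39.2 FPKM with the combination. The arms did not overlap, and the widest gap lay between the arms without and with RMC-6236. Loxl2 rose with RMC-6236 by 0.82 ± 0.036 (adjusted p = 2.87e-10) and with tazemetostat by 0.15 ± 0.036 (adjusted p = 0.00452), and the combination was higher than RMC-6236 by 0.19 ± 0.036 (adjusted p = 0.000904). The interaction was 0.037 ± 0.050 (adjusted p = 0.643).

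In the KPC tumours Loxl2 stood at 45.2, 34.4, 33.0 and 44.3 FPKM in control and at 40.0, 35.0, 45.7 and 46.4 FPKM with tazemetostat, and these arms overlapped. With RMC-6236 it was 70.0, 85.7, 58.8 and 70.2 FPKM, above every control. With the combination it was 60.8, 66.2, 44.6 and 55.4 FPKM, and replicate 3 lay within the control range. Loxl2 rose with RMC-6236 by 0.84 ± 0.14 (adjusted p = 0.000395) and with the combination against control by 0.52 ± 0.14 (adjusted p = 0.00697). The difference between combination and RMC-6236 tumours was -0.32 ± 0.14 (adjusted p = 0.196). Against tazemetostat the combination was higher by 0.43 ± 0.14 (adjusted p = 0.0215). That call was lost without tazemetostat replicate 2 (0.35, adjusted p = 0.0702), combination replicate 1 (0.39, adjusted p = 0.0578) or combination replicate 2 (0.35, adjusted p = 0.0711).

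**Figure D2:**
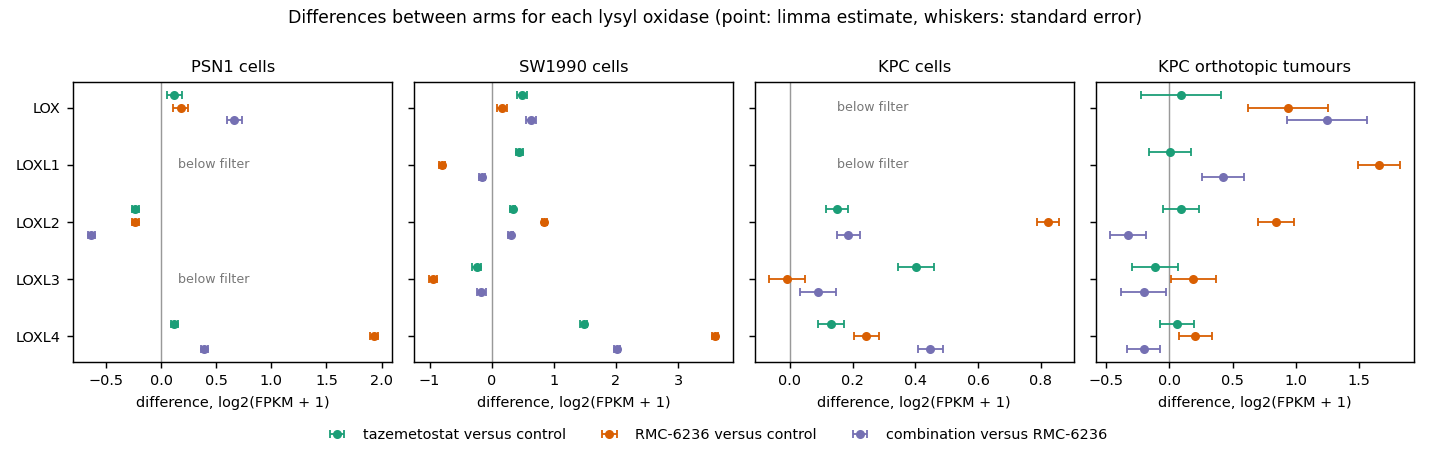
Differences between arms on the log2(FPKM + 1) scale (horizontal axis; its range differs by panel) for each lysyl oxidase (vertical axis) in the 4 tables, for each single agent relative to control and for the combination relative to RMC-6236; points are limma estimates and whiskers their standard errors, and members under the filter are marked. LOXL4 with RMC-6236 lies farthest to the right in both human lines, and its rise in SW1990 cells led to the choice of the family. LOXL2 lies left of 0 in PSN1 cells, and Loxl1 and Lox lead in tumours with the wider errors of 4 tumours per arm.

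LOXL3, the third member with scavenger receptor domains, was low in the human lines. PSN1 cells had between 0.255 and 0.654 FPKM in all 12 libraries, and the gene was not tested there. In SW1990 cells LOXL3 stood at 3.16, 3.31 and 2.67 FPKM in control, 2.28, 2.57 and 2.43 FPKM with tazemetostat, 1.002, 1.19 and 1.10 FPKM with RMC-6236 and 0.931, 0.748 and 0.933 FPKM with the combination. The arms did not overlap and went down in that order, the reverse of LOXL2 and LOXL4. LOXL3 fell by 0.24 ± 0.070 with tazemetostat (adjusted p = 0.0173), and this call was lost without control replicate 1 (adjusted p = 0.0584), control replicate 2 (0.0743) or tazemetostat replicate 1 (0.0717). The untested difference with RMC-6236 was -0.95 ± 0.070. The combination against RMC-6236 gave -0.17 ± 0.070 (adjusted p = 0.0681), and with a pseudocount of 0.1 it gave -0.31 with an adjusted p of 0.0352. With libraries rescaled by the median ratio the same comparison had an adjusted p of 0.0227, and rescaled to the sum without mitochondrially encoded genes it had 0.0357.

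Loxl3 in KPC cells was called with tazemetostat and not with RMC-6236. Its levels were 3.93, 4.45 and 4.28 FPKM in control and 5.79, 6.10 and 5.77 FPKM with tazemetostat. They were 4.42, 4.36 and 3.79 FPKM with RMC-6236 and 4.25, 4.65 and 4.67 FPKM with the combination, which overlapped control. Loxl3 rose with tazemetostat by 0.40 ± 0.057 (adjusted p = 0.000122). The difference for RMC-6236 against control was -0.0083 ± 0.057 (adjusted p = 0.902), and for the combination against RMC-6236 it was 0.091 ± 0.057 (adjusted p = 0.213). The interaction was -0.31 ± 0.081 (adjusted p = 0.0136), so the tazemetostat difference was smaller in the presence of RMC-6236. In tumours Loxl3 was among the higher members in control and was not called in any comparison. Its levels were 31.4 to 38.0 FPKM in control, 23.2 to 41.7 FPKM with tazemetostat, 31.9 to 49.3 FPKM with RMC-6236 and 27.0 to 43.2 FPKM with the combination. All arms overlapped, and for RMC-6236 against control the difference was 0.19 ± 0.18 (adjusted p = 0.421).

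LOX, the founding member and one of the pair with a cleaved propeptide, was near 1 FPKM in both human lines. In PSN1 cells its levels were 0.872, 0.968 and 0.746 FPKM in control, 1.08, 1.11 and 0.876 FPKM with tazemetostat and 1.24, 0.974 and 1.10 FPKM with RMC-6236. The combination libraries stood apart at 2.20, 2.37 and 2.44 FPKM. LOX was higher in the combination than with RMC-6236 by 0.66 ± 0.068 (adjusted p = 3.41e-06), and the interaction was 0.55 ± 0.096 (adjusted p = 0.00118). With tazemetostat alone the LOX difference was 0.12 ± 0.068 (adjusted p = 0.179). With RMC-6236 it was 0.18 ± 0.068 (adjusted p = 0.0294), and the adjusted p was 0.0651 without the filter, 0.088 with libraries rescaled by the median ratio and 0.0502 with only the compared arms. The RMC-6236 call was also lost without control replicate 1 (adjusted p = 0.054), control replicate 3 (0.12), RMC-6236 replicate 1 (0.12) or RMC-6236 replicate 3 (0.0587).

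SW1990 cells showed LOX at 0.528, 0.833 and 0.536 FPKM in control, 1.36, 1.16 and 1.297 FPKM with tazemetostat, 0.663, 0.968 and 0.850 FPKM with RMC-6236 and 1.78, 1.85 and 1.86 FPKM with the combination. Control and RMC-6236 overlapped, and tazemetostat and the combination lay above both. The untested differences were 0.48 ± 0.079 for tazemetostat against control, 0.63 ± 0.079 for the combination against RMC-6236 and 0.15 ± 0.11 for the interaction. In PSN1 cells, where LOX was tested, the combination was also higher than tazemetostat, by 0.72 ± 0.068 (adjusted p = 5.47e-07).

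Lox was next to absent in cultured KPC cells. All control and tazemetostat libraries listed it at 0, and the highest value in any library was 0.0228 FPKM, with RMC-6236. In the KPC tumours it was present in every library. Its levels were 2.77, 4.26, 8.58 and 8.72 FPKM in control, 3.95, 7.40, 4.70 and 9.07 FPKM with tazemetostat, 9.23, 18.8, 9.40 and 10.7 FPKM with RMC-6236 and 24.8, 36.2, 26.5 and 28.5 FPKM with the combination. Control and tazemetostat overlapped, every RMC-6236 tumour lay above every control, and every combination tumour lay above every RMC-6236 tumour. Cell and tumour tables were made separately, so the contrast in Lox between them is described and not tested.

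Lox rose in tumours with the combination against control by 2.18 ± 0.32 (adjusted p = 5.83e-05) and against RMC-6236 by 1.24 ± 0.32 (adjusted p = 0.0256). Lox was the 1 member called between those 2 arms, where 8.13% of genes were called. The call against RMC-6236 was lost when RMC-6236 replicate 1 (adjusted p = 0.072), replicate 3 (0.0668) or replicate 4 (0.0671) or combination replicate 2 (0.0671) or replicate 4 (0.0563) was left out, with differences of 1.14 to 1.25. Without combination replicate 3, the tumour with adipocyte markers, it was 1.28 ± 0.35 (adjusted p = 0.0475). The rise with RMC-6236 against control was 0.94 ± 0.32 (adjusted p = 0.0299). It was lost without control replicate 1 (0.67, adjusted p = 0.0968), control replicate 2 (0.83, adjusted p = 0.0743) or RMC-6236 replicate 2 (0.72, adjusted p = 0.0888), without the filter (adjusted p = 0.0669) and with only the compared arms (0.0688). Tazemetostat alone gave a Lox difference of 0.092 ± 0.32 in tumours (adjusted p = 0.961), and the interaction was 1.15 ± 0.45 (adjusted p = 0.233).

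LOXL1, the other member with a cleaved propeptide and the one most tied to elastic fibres, was at most 0.134 FPKM in any PSN1 library and at most 0.114 FPKM in any KPC cell library. In SW1990 cells it stood at 2.65, 2.95 and 2.61 FPKM in control, 4.13, 3.99 and 4.14 FPKM with tazemetostat, 1.14, 1.23 and 1.07 FPKM with RMC-6236 and 0.863, 0.973 and 0.950 FPKM with the combination. Tazemetostat lay above control and both arms with RMC-6236 lay below it, without overlap. LOXL1 rose with tazemetostat by 0.45 ± 0.053 (adjusted p = 2.72e-05). The untested difference for RMC-6236 against control was -0.80 ± 0.053. The untested interaction was -0.60 ± 0.075. In the presence of RMC-6236 the direction of tazemetostat turned: the combination was lower than RMC-6236, with a difference of -0.15 ± 0.053 (adjusted p = 0.0287). That call against RMC-6236 was lost without RMC-6236 replicate 2 (adjusted p = 0.101), combination replicate 1 (0.107) or combination replicate 3 (0.0551) and with only the compared arms (0.0704). The antisense gene LOXL1-AS1 had means of 1.43 ± 0.092 FPKM in control, 1.39 ± 0.023 in the tazemetostat arm, 0.751 ± 0.0093 in the RMC-6236 arm and 0.485 ± 0.11 in the combination arm (SD, n = 3), and the library kit keeps strand, but whether strand was used in counting is not stated.

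In tumours Loxl1 had the largest called difference of the family with RMC-6236. Its levels were 11.95, 20.8, 15.4 and 15.2 FPKM in control, 17.6, 11.6, 17.0 and 17.0 FPKM with tazemetostat, 65.9, 53.8, 44.7 and 43.1 FPKM with RMC-6236 and 70.2, 77.6, 67.5 and 61.7 FPKM with the combination. Every tumour that received RMC-6236, alone or combined, lay above every tumour that did not, and the combination overlapped RMC-6236 alone. Loxl1 rose with RMC-6236 by 1.66 ± 0.17 (adjusted p = 7.05e-06) and with the combination against control by 2.08 ± 0.17 (adjusted p = 2.2e-07). The combination against RMC-6236 gave 0.43 ± 0.17 (adjusted p = 0.136). With tazemetostat alone the difference was 0.0044 ± 0.17 (adjusted p = 0.999).

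The make-up of the family differed between tables. LOXL2 made up 91.2% ± 0.30 of the summed family FPKM in PSN1 control cells and 53.1% ± 2.7 in SW1990 control cells (SD, n = 3). In SW1990 control cells LOXL3 and LOXL1 overlapped in level and LOX was lowest. Loxl4 and Loxl2 overlapped as the top members of KPC control cells, and in control tumours Loxl2 overlapped Loxl3 at the top and Loxl4 overlapped Lox at the bottom. In the combination tumours Loxl1 and Loxl2 overlapped at the top, Loxl3 overlapped Lox, and Loxl4 was lowest and apart.

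The widest shift of these shares was in SW1990 cells. It rests mainly on LOXL4, whose rise there led to the choice of the family, so nothing is read from that ranking of the tables. LOXL4 made up 17.9% ± 0.93 of the family in control SW1990 cells, 35.9% ± 1.0 in the tazemetostat arm, 70.3% ± 0.33 in the RMC-6236 arm and 88.6% ± 0.086 in the combination arm (SD, n = 3). The family sum went from 22.0 ± 0.93 FPKM to 35.5 ± 0.61, 83.6 ± 3.7 and 271 ± 1.7 FPKM over the same arms. In PSN1 cells the sum stayed between 28.1 and 35.7 FPKM in all libraries while the LOXL4 share went from 4.23% ± 0.13 in control to 23.2% ± 0.37 with RMC-6236 and 36.7% ± 0.73 with the combination. The ratio of LOXL4 to LOXL2 was 0.338 ± 0.036 in SW1990 control cells and 8.85 ± 0.098 in the combination, and in PSN1 cells it was 0.0464 ± 0.0015 and 0.682 ± 0.026. In KPC cells the ratio was 1.01 ± 0.048 in control and 0.668 ± 0.0049 with RMC-6236, so that Loxl2 moved ahead of Loxl4. In tumours the family sum was 103 ± 6.1 FPKM in control, 104 ± 14 in the tazemetostat arm, 184 ± 29 in the RMC-6236 arm and 197 ± 14 in the combination arm (SD, n = 4), and the Lox share was 5.84% ± 2.7 in control and 14.7% ± 1.9 with the combination.

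**Figure D3:**
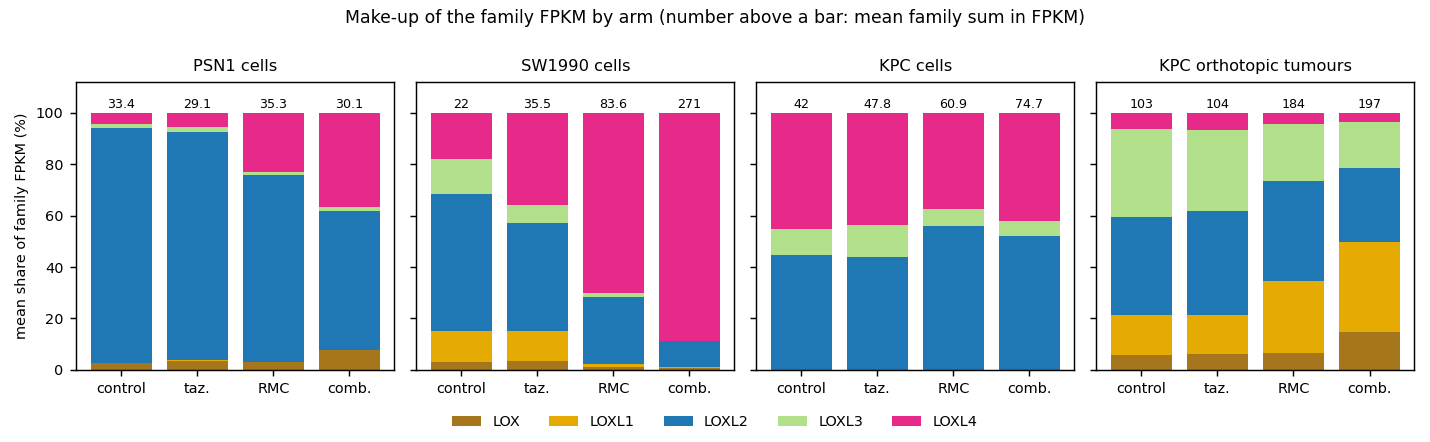
Mean share of the summed family FPKM (vertical axis, %) taken by each lysyl oxidase in the 4 arms (horizontal axis, shortened as taz., RMC and comb.) of each table; the number above a bar is the mean family sum in FPKM. The LOXL4 share grows from 17.9% to 88.6% across the arms of SW1990 cells, where its rise led to the choice of the family. It grows from 4.23% to 36.7% in PSN1 cells, while in tumours Loxl1 and Lox take a larger share in the combination.

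The tumours hold host cells as well as cancer cells. Fibroblast marker sums were higher with RMC-6236, as were Lox, Loxl1 and Loxl2, while Loxl3 and Loxl4 were not called. The summed FPKM of 12 fibroblast markers ran from 880 to 1210 in control, 607 to 1366 in tazemetostat tumours, 3083 to 4042 in RMC-6236 tumours and 3376 to 3957 in combination tumours, and all 12 reached 1 FPKM in tumours. Cultured KPC cells had 4 of the 12 at 1 FPKM or more, among them Col1a1 at 7.71 FPKM and Pdgfra at 11.02 FPKM in control. In control Postn, Thy1 and Lum were at 0 and Col1a2 was at 0.022 FPKM, and 1 of the 12 was at 0 in every KPC cell library. The 12 summed to 42.2 ± 0.49 FPKM in control KPC cells and 41.2 ± 0.89 in the tazemetostat arm. With RMC-6236 the sum in these cells was 66.7 ± 0.40 and with the combination 55.3 ± 1.7 FPKM (SD, n = 3). Loxl1, as a percentage of the summed fibroblast markers, was 1.46 ± 0.33 in control, 1.54 ± 0.14 with RMC-6236 and 1.88 ± 0.061 with the combination (SD, n = 4). Lox was 0.577 ± 0.33, 0.368 ± 0.16 and 0.789 ± 0.12 percent of that sum in the same arms. For Loxl2 the percentages were 3.62 ± 0.56, 2.15 ± 0.43 and 1.54 ± 0.19. Loxl3 had 3.27 ± 0.70, 1.22 ± 0.23 and 0.964 ± 0.22 percent, and Loxl4 had 0.612 ± 0.094, 0.241 ± 0.069 and 0.180 ± 0.022 percent. Relative to the sum of all 12 markers Loxl1 therefore had overlapping ranges in control (1.11 to 1.74) and RMC-6236 tumours (1.40 to 1.69). On the same sum Loxl2 was lower in every RMC-6236 tumour (1.73 to 2.70) than in any control (2.86 to 4.21).

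The answer for Loxl1 and Loxl2 against control depended on the marker set, and so did that for Lox between combination and RMC-6236 tumours. With the 3 collagens left out, Loxl1 was 8.87 to 12.3% of the other 9 markers in control and 14.98 to 19.2% with RMC-6236, without overlap, and Lox was 2.05 to 6.86% and 2.69 to 6.55%, with overlap. Loxl2 was 19.4 to 33.6% of the same 9 markers in control and 20.4 to 29.9% with RMC-6236, with overlap. On all 12 markers Lox was 0.651 to 0.915% in combination and 0.228 to 0.592% in RMC-6236 tumours, without overlap. On the 9 markers it was 6.25 to 8.32% and 2.69 to 6.55% in these arms, with overlap. Other cell types moved as well. All 8 contractile markers of smooth muscle and myofibroblasts reached 1 FPKM in tumours, and their sum was 24.5 to 41.8 FPKM in control, 101 to 211 with RMC-6236 and 200 to 705 with the combination. Sums of 7 endothelial markers were 9.07 to 16.4 in control, 12.2 to 14.5 with RMC-6236 and 22.7 to 35.4 with the combination, 7 macrophage markers summed to 214 to 270, 353 to 535 and 433 to 672, and 8 epithelial markers summed to 3125 to 3909, 1457 to 2038 and 865 to 1415. Relative to the contractile sum Lox was 3.76 to 14.5% in combination and 6.31 to 10.6% in RMC-6236 tumours, with overlap. Relative to the endothelial sum Lox was 80.7 to 113% and 64.9 to 134% in these arms, with overlap. In bulk tumours more cells of a type and more RNA per cell cannot be told apart. The part of these cell types in the members' differences was not tested.

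**Figure D4:**
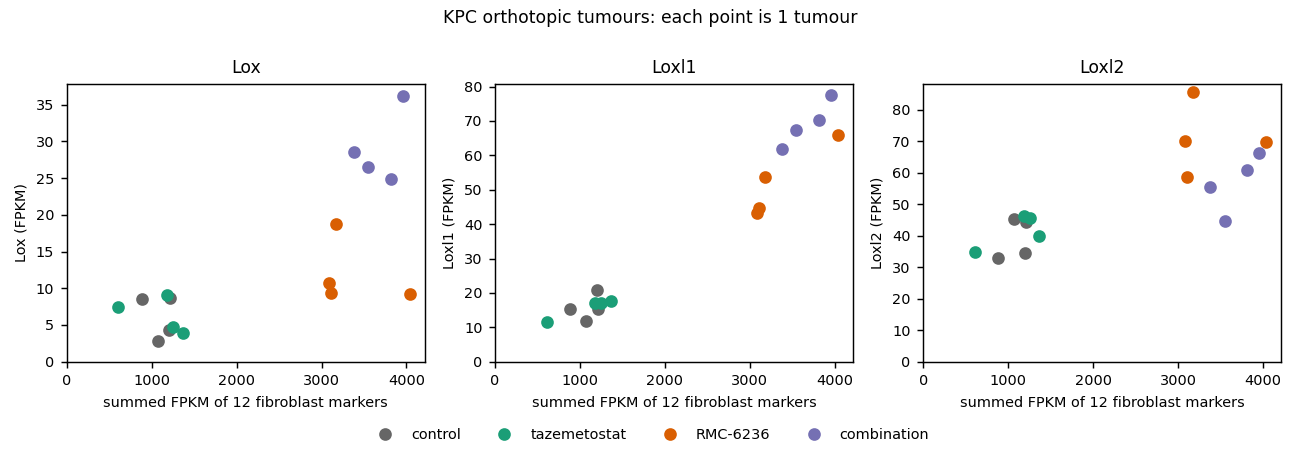
Lox, Loxl1 and Loxl2 (vertical axes, FPKM) against the summed FPKM of 12 fibroblast markers (horizontal axis) in the 16 KPC tumours, coloured by arm. Tumours with RMC-6236, alone or combined, lie at 3083 FPKM or more on the horizontal axis and the others at 1366 or less, and within the former group the combination tumours lie higher for Lox.

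The substrates of the family and the genes that act with it were read from 6 lists. In tumours given RMC-6236 against control, where 20.3% of all genes rose and 19.2% fell, 5 of 8 tested fibrillar collagen genes rose and none fell, with a median difference of 0.94. Col1a1 went from 486 ± 73 to 1811 ± 275 FPKM and Col1a2 from 28.9 ± 5.7 to 138 ± 21 FPKM (SD, n = 4). All 16 genes of collagen hydroxylation and folding rose, with a median of 0.62, among them Serpinh1, the collagen chaperone HSP47, from 171 ± 39 to 396 ± 35 FPKM. Of 16 elastic fibre genes 7 rose and 1 fell, with Emilin1 from 25.5 ± 3.8 to 76.7 ± 5.7 FPKM. Of 9 genes of propeptide processing and scaffold 5 rose and none fell. Bmp1, the protease that frees LOX from its propeptide, went from 22.1 ± 1.0 to 41.0 ± 3.7 FPKM. Copper supply genes had 4 that rose and 1 that fell of 9, and hypoxia targets had 1 and 2 of 13. Over all genes the median difference was 0.0089. Several fibrillar collagens are also fibroblast markers here, and the marker sums above moved with these lists.

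Between combination and RMC-6236 tumours, where 5.16% of genes rose and 2.97% fell, 5 elastic fibre genes rose, none fell and the other tested genes of that list were not called. Eln, which encodes elastin, went from 8.18 ± 3.3 to 33.4 ± 13 FPKM, by 1.90 ± 0.26 (SE, adjusted p = 0.000496), and Mfap2 and Mfap5, microfibril genes, rose by 1.83 ± 0.26 and 1.51 ± 0.27. Of the fibrillar collagens 2 rose, Col5a2 from 10.7 ± 4.9 to 30.3 ± 4.0 FPKM and Col1a2 from 138 ± 21 to 312 ± 10 FPKM. Postn, whose product periostin helps BMP1 to process LOX, rose from 7.87 ± 1.2 to 20.3 ± 6.2 FPKM. The median differences of the collagen, elastic fibre and processing lists were 0.12, 0.02 and 0.24, against -0.0050 over all genes. Contractile marker sums were 101 to 211 FPKM in RMC-6236 tumours and 200 to 705 in combination tumours, and endothelial sums were 12.2 to 14.5 and 22.7 to 35.4. The part of these cell types in the differences of the listed genes was not tested.

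In KPC cells in culture, which hold no host cells, many of these genes also rose with RMC-6236. There 37.9% of all genes rose and 35.8% fell. Of the elastic fibre genes 9 of 10 rose and none fell, with a median of 0.77, among them Efemp1 from 16.0 ± 1.3 to 65.0 ± 0.25 FPKM and Ltbp2 from 6.12 ± 0.21 to 21.7 ± 0.78 FPKM (SD, n = 3). Fibrillar collagens had 4 that rose and 1 that fell of 6, and collagen hydroxylation and folding had 11 and 2 of 15. Hypoxia targets, listed because LOX is itself a known target of hypoxia, had 10 that rose and 2 that fell of 13, with Egln3 falling from 140 ± 3.7 to 72.4 ± 1.5 FPKM, while Lox itself stayed at or near 0. Between combination and RMC-6236 in KPC cells (20.3% of genes rose and 28.5% fell), 11 of 13 hypoxia targets rose and none fell, and 5 elastic fibre genes rose and 3 fell.

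In the human lines these lists held genes that rose and genes that fell. In PSN1 cells with RMC-6236 (45.8% of genes rose and 34.6% fell), 2 of 4 fibrillar collagens rose and 2 fell, with COL3A1 going from 3.39 ± 0.32 to 33.2 ± 0.52 FPKM. BMP1 rose from 6.80 ± 0.13 to 12.5 ± 0.38 FPKM, and PCOLCE2, an enhancer of procollagen processing, fell from 4.41 ± 0.25 to 1.20 ± 0.073 FPKM. Between combination and RMC-6236 in PSN1 cells (24.1% rose and 30.1% fell), 3 of 6 processing and scaffold genes rose and 3 fell, with FN1, fibronectin, going from 94.1 ± 0.81 to 53.1 ± 0.32 FPKM. In SW1990 cells the same comparison (29.8% rose and 18.3% fell) had 5 of 7 elastic fibre genes up and 1 down, and 5 of 7 processing and scaffold genes up and 1 down. FN1 there went from 10.4 ± 0.54 to 15.5 ± 0.38 FPKM, the opposite direction to PSN1 cells. MT2A, a metal-binding metallothionein of the copper supply list, went from 222 ± 12 to 78.6 ± 3.6 FPKM in SW1990 cells and from 232 ± 6.3 to 320 ± 3.6 FPKM in PSN1 cells for the combination against RMC-6236.

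Genes with the most similar pattern to a member were ranked by Pearson's r of log2(FPKM + 1) over the libraries of a table, as a description, since all points share the 4 arms. For LOXL4 they were SPON2, TIMP2 and BTN3A2 in SW1990 cells (r of 0.999, 0.999 and 0.998 over 12 libraries). TIMP2, an inhibitor of matrix metalloproteinases, had means of 47.6, 61.9, 90.8 and 125 FPKM in control, tazemetostat, RMC-6236 and combination. In PSN1 cells LOXL4 was closest to CNTNAP1, NFE2 and CNN3 (r of 0.999 each), and in KPC cells to Selenbp1 and Atp7b (r of 0.989 each). Atp7b encodes a copper-transporting ATPase and had means of 6.11, 7.35, 8.24 and 12.1 FPKM over the same arms. LOXL2 was closest to IGF2BP3, CARD10 and ERRFI1 in PSN1 cells, to GSN, ALPP and SYNPO in SW1990 cells and to Mvp, Epb41l1 and Dnpep in KPC cells. ERRFI1, a feedback inhibitor of the EGF receptor, had means in PSN1 cells of 74.2, 47.2, 52.7 and 17.4 FPKM over the same arms.

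In tumours Lox was closest to Serping1, Colec12 and C3 (r of 0.973, 0.971 and 0.971 over 16 libraries). C3 and Serping1, complement genes, had means of 157 and 140 FPKM in the combination against 17.1 and 17.7 FPKM in control. Loxl1 was closest to Pla2g15, Ccdc80 and Msrb3 (r of 0.990, 0.986 and 0.984), and Loxl2 to Sprr2k, Map4 and Samd4 (r of 0.942, 0.926 and 0.925). For Loxl3 and Loxl4 the highest values were 0.751 with Wipi1 and 0.740 with Fbxo6. Between members the pattern of LOXL2 and LOXL4 was alike in SW1990 cells (r of 0.992) and KPC cells (0.868) and opposite in PSN1 cells (-0.764). Lox and Loxl1 had an r of 0.822 in tumours.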

How the data were processed

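For each cell line and for the tumours, FPKM values were deposited by the authors in a separate table; per the submitters' processing notes the tools were FastQC 0.11.2, STAR 2.5.3a and StringTie 1.3.1c with build hg38, and the build used for mouse is not given in the sources used here. Read depth is unknown because the files hold no counts, so replicates give the error. The labels list 67 samples; 52 have columns, and 15 from another tumour model were not analysed here. From the FPKM values, log2(FPKM + 1) was fitted with limma 3.58.1 (R 4.3.3, trend and robust settings, 1 mean per arm, each table separately) for genes at 1 FPKM or more in at least 3 cell or 4 tumour libraries, with Benjamini-Hochberg adjustment over all tested genes; the fit was tested on simulated data. The members, the gene and marker lists and the tests were chosen with earlier results of these data known. Named genes were the 5 members, up to 3 called genes per list with the largest difference, and the 3 genes with the highest Pearson r to a member among genes with an arm mean of at least 5 FPKM; marker genes, and LOXL1-AS1, were named after their values were seen. 1 gene that this rule names is not reported here. Alternatives were a pseudocount of 0.1, no filter, rescaling by the median ratio or to the sum without mitochondrially encoded genes, no trend, only the compared arms, a replicate block and leaving out each library. The median difference over all genes was at most 0.077 in any comparison. Promoter sequence was read from RefSeq.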

Additional observations from a re-analysis of the deposited data

Results flagged for a closer look

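With 4 samples per arm in tumours, 20 groups of a member and an arm were screened for a sample far from the others (a gap over 0.829 of the range), and chance alone gives about 1 in 20. Lox in the RMC-6236 tumours had its highest value in replicate 2, 18.8 FPKM, with 0.842 of the range between it and the next tumour. Loxl1 in the tazemetostat tumours had its lowest value in replicate 2, 11.6 FPKM, with 0.889 of the range. That tumour also had the lowest fibroblast marker sum of the 16, 607 FPKM; its part in the value was not tested.

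LOXL2 moved in opposite directions in the 2 human lines: lower in PSN1 cells and higher in SW1990 cells in 5 comparisons. The log2 difference in SW1990 cells minus that in PSN1 cells was 0.57 for tazemetostat against control, 1.08 for RMC-6236 against control, 2.02 for the combination against control, 0.94 for the combination against RMC-6236 and 1.45 for the combination against tazemetostat. The difference between the lines was not tested.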

How the results depend on the processing

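Counts of called members are over all tested members of PSN1 cells, KPC cells and tumours. The shares of all genes called in the main fit are given above. For SW1990 cells, where LOX and LOXL4 were not read as tests, changed calls are named by member, leaving out RMC-6236 against control and the interaction. With only the compared arms in the fit the count went from 2 to 1 in PSN1 cells with tazemetostat, from 3 to 2 with RMC-6236 in PSN1 cells and in tumours, and from 3 to 2 in KPC cells with tazemetostat. The same fit lost the LOXL1 call in SW1990 cells for the combination against RMC-6236. LOXL3, uncalled in that comparison, was called with a pseudocount of 0.1 or either rescaling. The median ratio gave 2 in place of 3 in PSN1 cells with RMC-6236. Without the filter it was 2 in place of 3 in tumours with RMC-6236, and 1 more member was called in PSN1 cells against tazemetostat and in KPC cells against control and tazemetostat, all with the combination. Leaving out 1 library gave 0 to 1 called members for the combination against RMC-6236 in tumours and 2 to 3 for the combination against tazemetostat there. It gave 2 to 4 with RMC-6236 in tumours, 2 to 3 with RMC-6236 in PSN1 cells and 2 to 3 with tazemetostat in KPC cells. In SW1990 cells it changed the LOXL1 and LOXL3 calls for the combination against RMC-6236 and the LOXL3 call with tazemetostat. A replicate block changed no call; the block gave 1.24 ± 0.26 for Lox in tumours, combination against RMC-6236 (adjusted p = 0.016), and 1 called member there. Replicate numbers did not pair the samples (median correlation of same-numbered libraries 0.016 in PSN1, -0.0036 in SW1990 and 0.015 in KPC cells and -0.117 in tumours).

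Values that changed sign were uncalled differences near 0. Rescaling without mitochondrially encoded genes gave 0.0013 for Loxl3 in KPC cells with RMC-6236, -0.032 for Loxl1 with tazemetostat in tumours and -0.012 for Loxl4 with the combination against control in tumours, and the median ratio gave -0.0083 for Loxl1 with tazemetostat in tumours. Over left-out libraries the interaction of LOXL2 in SW1990 cells ran from -0.061 to 0.0020 and Loxl3 with RMC-6236 in KPC cells from -0.049 to 0.048. In tumours with tazemetostat Lox ran from -0.17 to 0.28, Loxl1 from -0.11 to 0.14, Loxl3 from -0.23 to 0.040 and Loxl4 from -0.0045 to 0.15. The combination against control gave -0.11 to 0.10 for Loxl3 and -0.10 to 0.062 for Loxl4, against tazemetostat -0.051 to 0.22 and -0.16 to 0.0078, and the Loxl3 interaction ran from -0.24 to 0.032. The cause was not tested. Values under about 1 FPKM are near the floor of these tables, whose depth is unknown, and 4 tumours per arm limit what can be called there.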
